A study of Mus musculus with 2 samples.

Results

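Aminoacyl-tRNA synthetases are the enzymes that load each amino acid onto its tRNA, the step that puts the genetic code into effect. Here 37 listed genes of this family were followed: 20 whose products act in the cytosol, 15 whose products act in mitochondria, and 2, Aimp1 and Aimp2, that encode scaffold proteins. They were chosen by name on the array, with older names allowed, among 16019 genes measured on both arrays. All 37 were measured.

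RAW 264.7 is an established line of mouse macrophage-like cells, and the cytokine RANKL turns such cells into precursors of osteoclasts, which resorb bone. Cells labelled RCCS spent 24 h in a rotating culture vessel that models microgravity, and those labelled control were ground-based. The protocol gives RANKL at 80 ng/ml for 24 h, in a text shared by both samples that does not settle whether the control cells also received it. Each group had 1 Agilent whole mouse genome array, both on 1 slide, so there is no replicate check, no test between conditions was made, and the spread between cultures is unknown.

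Mammalian cells carry 2 sets of these enzymes, both encoded in the nucleus. The cytosolic set serves the translation of nuclear messages, and the mitochondrial set, made in the cytosol and imported, serves the few proteins that mitochondria translate. Several cytosolic enzymes sit together in a multi-synthetase complex held by the AIMP scaffolds. When an amino acid runs short and uncharged tRNA builds up, the kinase GCN2 leads to translation of the transcription factor ATF4, and many cytosolic synthetase genes are known ATF4 targets, which carry a short element for C/EBP and ATF factors, the CARE, near their start.

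The start regions of 4 members show where that element lies and where it does not. Each window runs from 250 bases before the annotated gene start to 50 bases after it, 5′ to 3′ on the gene's strand, from RefSeq on build GRCm38.p6. Capitals mark the CARE letters TGATGNAA and the E-box letters CACGTG, the site of MYC and related factors, each on either strand. Aars (alanine), at chr8:111033592-111033891 on the plus strand, was chosen because it holds the most CARE matches. Tars (threonine), at chr15:11399609-11399908 on the minus strand, holds both motifs. Yars (tyrosine), at chr4:129189653-129189952 on the plus strand, is the carrier of the CARE letters with the lowest ratio between arrays. Lars2 (leucine, mitochondrial), at chr9:123366677-123366976 on the plus strand, holds neither motif and had the lowest ratio of all members.
Aars: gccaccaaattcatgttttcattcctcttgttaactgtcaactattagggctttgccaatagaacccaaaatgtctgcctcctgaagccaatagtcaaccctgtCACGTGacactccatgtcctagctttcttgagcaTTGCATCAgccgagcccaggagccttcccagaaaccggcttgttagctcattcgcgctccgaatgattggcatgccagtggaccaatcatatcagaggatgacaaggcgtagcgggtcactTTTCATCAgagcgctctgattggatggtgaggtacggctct
Tars: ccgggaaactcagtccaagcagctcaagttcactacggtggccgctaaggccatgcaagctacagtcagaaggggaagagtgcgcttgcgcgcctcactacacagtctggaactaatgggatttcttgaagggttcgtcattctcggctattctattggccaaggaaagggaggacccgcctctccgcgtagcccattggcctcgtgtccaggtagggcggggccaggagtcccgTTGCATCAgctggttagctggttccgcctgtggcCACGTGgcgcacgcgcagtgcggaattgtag
Yars: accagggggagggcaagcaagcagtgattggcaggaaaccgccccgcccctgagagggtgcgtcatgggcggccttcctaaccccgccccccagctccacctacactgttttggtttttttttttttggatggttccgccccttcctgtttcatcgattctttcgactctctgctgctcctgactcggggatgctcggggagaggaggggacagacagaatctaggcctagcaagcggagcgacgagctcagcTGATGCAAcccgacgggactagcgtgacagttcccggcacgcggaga
Lars2: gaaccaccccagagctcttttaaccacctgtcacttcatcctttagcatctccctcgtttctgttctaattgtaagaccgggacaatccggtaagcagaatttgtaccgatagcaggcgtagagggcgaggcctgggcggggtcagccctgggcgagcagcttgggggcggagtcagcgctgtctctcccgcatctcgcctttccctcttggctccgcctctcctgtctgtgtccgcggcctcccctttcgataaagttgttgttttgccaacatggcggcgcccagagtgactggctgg

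The CARE letters stood 112 bases before the start in Aars, with a second match just after the start, and 15 bases before it in Tars. In Yars they lay just after the start. Of the members, 29 had such a window. Cars, Hars, Lars, Nars, Rars, Vars, Wars and Pars2 had none, so they were not searched for any of these letters. The CARE letters were present in 5 of 13 cytosolic members with a window (Aars, Gars, Iars, Tars and Yars) and in 0 of 14 mitochondrial ones, against 4.51% of 27025 genes. CACGTG was found in 4 of the 13 (Aars, Farsb, Iars and Tars) and in 1 of the 14 (Ears2), against 8.09% of genes. The letters of the interferon elements ISRE (TTTC, any 2 bases, TTTC) and GAS (TTCNNNGAA) were found in 1 member (Qars) and 3 members (Aars, Kars and Nars2) of the 29, against 3.99% and 9.55% of genes. A match is a run of letters and not a bound site.

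The question put to the arrays was how modelled microgravity changes gene expression in precursors of osteoclasts. Nearly the whole family lay lower on the RCCS array, by modest folds. Values are the log2 ratio of RCCS over control, after each array was divided by the 75th percentile of its own processed signal, and the signals quoted are these scaled signals, for a gene with several probes those of the probe brightest on the control array. All 37 members had a ratio below 0, against 61.8% of the 16019 measured genes. Under other scalings fewer did: 35 with quantile normalization, where Nars and Sars lay above 0, 34 with loess and 30 with spike-in scaling. The median of all genes was then -0.06, -0.01 and 0.18, in that order, and the share of all genes below 0 was not computed. With the main scaling 0 members lay above 0, against 38.2% of all genes. Their median was -0.54, a fold of 1.45, where the median of all measured genes was -0.13. At least 1.5-fold lower were 15 members (40.5%), against 14.8% of all genes, and 0 members were at least 1.5-fold higher, against 9.74%. The excess of lower members depended on the scaling: it was 7 members (18.9%) against 11.5% with quantile normalization, 6 (16.2%) against 10.1% with loess, and 2 (5.41%) against 5.39%, no excess, with spike-in scaling. At least 2-fold lower were Vars and Lars2, 5.41% of the members, against 3.76%, and 0 were 2-fold higher, against 3.88%. The scanner software's spot error gave a typical member a 95% half-width of 0.40. By that error 26 of the 37 intervals lay below 0, and 22 excluded the median of all genes. These counts hold for this scaling and have no share of all genes beside them, so they are not a result about the family. The interval of a gene with several probes takes its probes as independent. Eprs, for example, had -0.81 to -0.41 while its probes ran from -1.44 to -0.13. The spot error is the software's estimate, a standard error of 0.20 for a typical member, and not a measured spread. Among 108 probes with at least 5 measured spots and a control signal of at least 100, spots varied less. The median standard deviation of their log2 ratios was 0.040. Neither value covers the culture, the RNA or the labelling. In a single RNA pool, fewer cells of a type and less RNA per cell cannot be told apart.

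**Figure D1:**
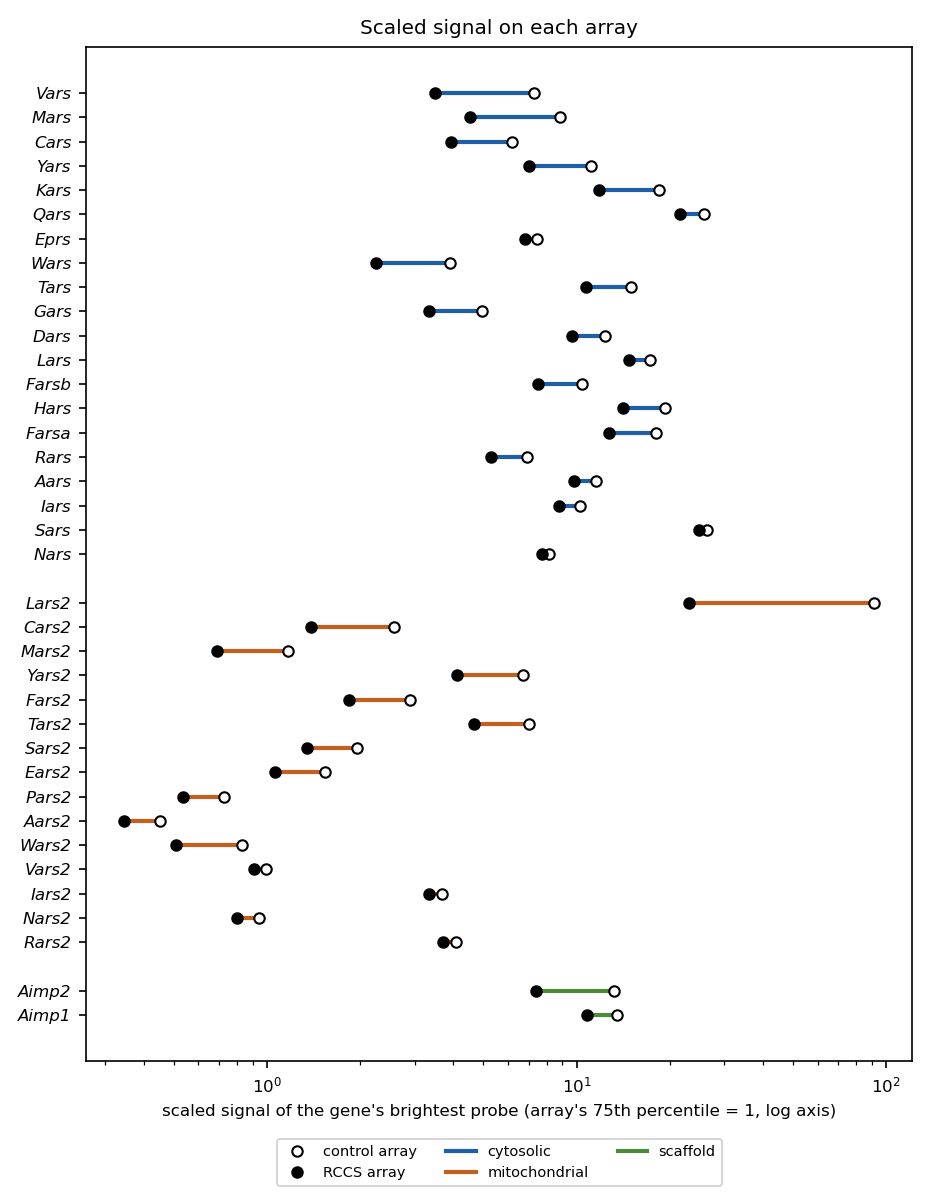
Scaled signal of each member's brightest probe on the control array (open circles) and the RCCS array (filled circles), on a log axis where 1 is the array's 75th percentile, coloured by class. The filled circle lies left of the open one for each of the 37 genes under this scaling (26 for these probes with spike-in scaling), by the longest stretch for Lars2 (91.6 and 23.0) and by little for Sars and Nars.

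The cytosolic enzymes had a median of -0.56 over 20 genes. All were below 0, against 61.8% of all genes, and 8 (40.0%) were at least 1.5-fold lower, against 14.8%. With spike-in scaling Vars alone of them stayed 1.5-fold lower. Vars, which charges valine, was lowest. Its brightest probe went from a scaled signal of 7.29 on the control array to 3.49 on the RCCS array, the gene stood at -1.05 (2.08-fold lower, 95% spot interval -1.34 to -0.77), and its probes nearly coincided, at -1.06 and -1.05. The array lists these probes as Vars2, an older name of the cytosolic gene, and their accession places them in Vars. Mars, which charges the methionine used to start and extend proteins, went from 8.81 to 4.54 and stood at -0.84. Cars, for cysteine, went from 6.18 to 3.94 and stood at -0.73, with its 3 probes from -0.93 to -0.62. These 3 genes are the cytosolic members farthest from 0.

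Next came Yars, for tyrosine, from 11.2 to 7.03 (-0.67), and Kars, for lysine, whose gene also makes the mitochondrial enzyme, from 18.5 to 11.8 (-0.64). Qars, for glutamine, stood at -0.62 as a mean of 3 probes. Its brightest probe was at -0.25, from 25.8 to 21.6, and the mean includes a dim probe at -1.22, with scaled signals of 0.086 and 0.037. Qars thus counts as 1.5-fold lower only through its dim probe, and came to -0.32 when probes under a processed signal of 100 were left out.

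Eprs, a fused enzyme for glutamate and proline, stood at -0.61, and its 4 probes ran from -1.44 to -0.13. Wars, for tryptophan, known as an interferon-induced gene, went from 3.91 to 2.25 and stood at -0.61, with probes at -0.80 and -0.42. Its ratio was in the middle of its family. The interferon response list had a median of -1.87 over 37 measured genes, all below 0 and 35 (94.6%) at least 1.5-fold lower, with Oasl2 at -4.27, Isg15 at -4.23 and Ifit3 at -3.56, so Wars lay well above it.

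The other cytosolic genes were under 1.5-fold. Tars stood at -0.58 (from 15.0 to 10.7) and Gars, for glycine and also serving mitochondria, at -0.57 (from 4.96 to 3.33). Dars, for aspartate, was at -0.55, a mean that includes a dim probe at -0.75, while its brightest probe was at -0.35. Lars, for leucine, was at -0.48, and Hars, for histidine, at -0.46. The subunits of the phenylalanine enzyme, which work as a pair, were close to each other, with Farsb at -0.47 (from 10.4 to 7.53) and Farsa at -0.43 (brightest probe from 17.98 to 12.7). Rars, for arginine, was at -0.39, Aars at -0.32 and Iars, for isoleucine, at -0.27. Sars, for serine, went from 26.5 to 24.8 (-0.09) and Nars, for asparagine, from 8.15 to 7.71 (-0.08). These 2 genes were the only members above the median of all genes.

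**Figure D2:**
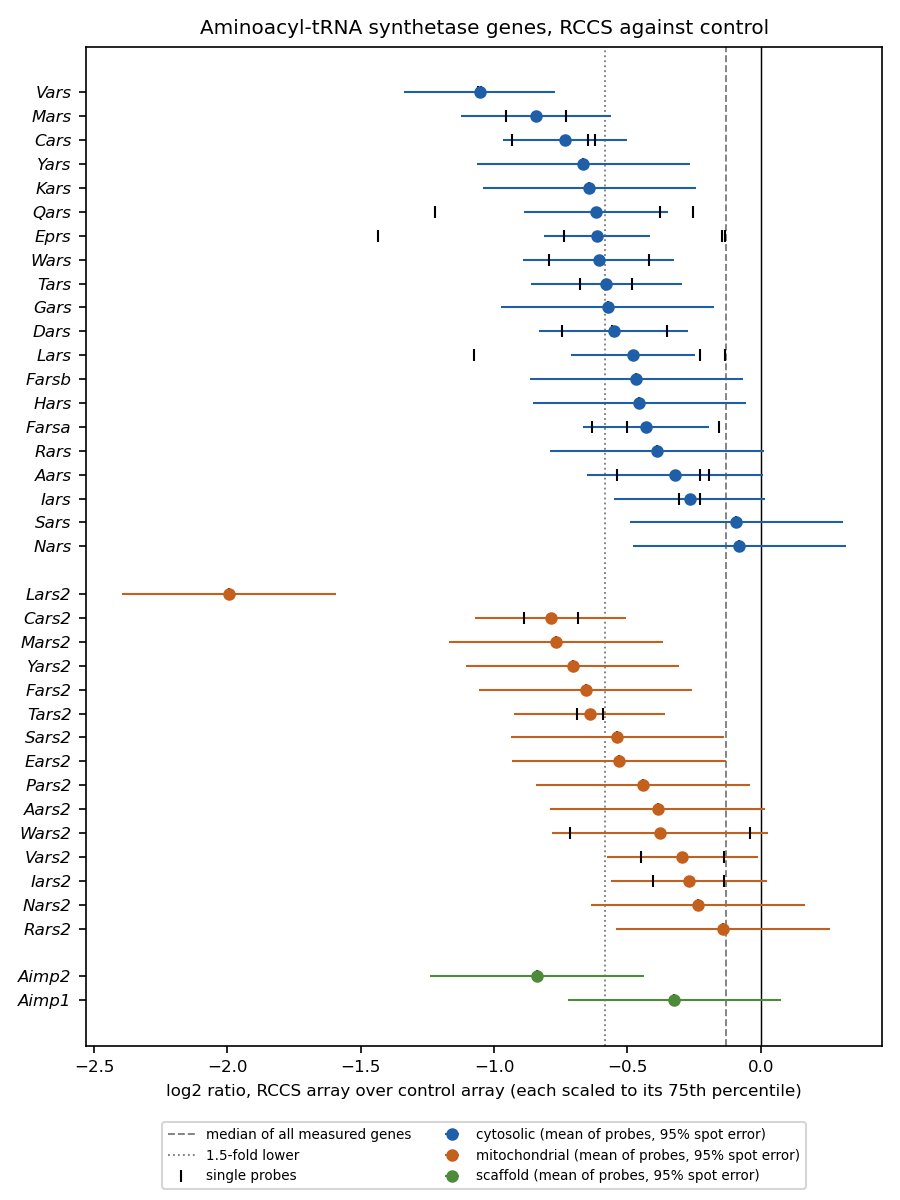
Log2 ratio of RCCS over control for each member (points, mean of its measured probes, with the 95% interval from spot error), grouped by class, and the single probes of genes with several (ticks). All 37 points lie left of 0 (30 with spike-in scaling), Lars2 is at -1.99, and the probes of Eprs, Lars, Qars and Wars2 lie farthest apart.

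Split by membership of the multi-synthetase complex, the 8 cytosolic enzymes in it (Dars, Eprs, Iars, Kars, Lars, Mars, Qars and Rars) had a median of -0.58 and the 12 outside it -0.52, a difference of -0.06 that is small beside the range of either group. Its sign turned when the probe nearest the 3′ end was taken in place of the mean, where Eprs stood at -0.13, Lars at -0.23 and Dars at -0.35. The scaffold genes differed from each other: Aimp2 went from 13.2 to 7.39 (-0.84) and Aimp1, also known as the precursor of the cytokine EMAP II, from 13.5 to 10.8 (-0.32). Eef1e1, which encodes the remaining scaffold protein of the complex, was at -0.67. The enzymes fall into 2 structural classes by their catalytic fold. The 9 cytosolic class I genes (Cars, Iars, Lars, Mars, Qars, Rars, Vars, Wars and Yars) had a median of -0.62 and 6 at least 1.5-fold lower, and the 10 class II genes -0.46 and 1, with Eprs, which holds both folds, left out. Of all genes 14.8% were, and Qars is among the 6 through its dim probe. The classes overlapped, from -1.05 to -0.27 and from -0.64 to -0.08. Tars and Gars, of class II, just missed 1.5-fold, at -0.58 and -0.57. With the probe nearest the 3′ end in place of the mean, Qars stood at -0.25 and Wars at -0.42, both under 1.5-fold. Class I then had the median nearer 0, so the order of the 2 classes depended on the probes taken.

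The mitochondrial enzymes had a median of -0.53 over 15 genes, all below 0 and also below the median of all genes. At least 1.5-fold lower were 6 (40.0%), against 14.8% of all genes, and with spike-in scaling Lars2 alone. Lars2, the mitochondrial leucine enzyme, stood apart. Its 1 probe went from a scaled signal of 91.6 to 23.0, a ratio of -1.99 (3.98-fold lower), and its value was between -1.99 and -1.64 over all alternatives. No second probe of the gene was on the array to check it. Without Lars2 the mitochondrial median was -0.49, and the lowest of the other 14 genes was Cars2, for cysteine, from 2.58 to 1.39 (-0.79, probes at -0.89 and -0.68).

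Mars2, for methionine, went from 1.17 to 0.687 (-0.77), Yars2, for tyrosine, from 6.72 to 4.12 (-0.70), and Fars2, for phenylalanine, from 2.90 to 1.84 (-0.66). Tars2, for threonine, stood at -0.64 with 2 probes that nearly coincided, at -0.69 and -0.59. Yars2 has a second probe that passed the background filter on RCCS alone, with scaled signals of 0.017 and 0.042, and with no filter on dim probes the gene's mean turned to 0.31.

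The remaining mitochondrial genes were under 1.5-fold. Sars2 was at -0.54, Ears2, for glutamate, at -0.53, Pars2, for proline, at -0.44 and Aars2 at -0.39. Wars2 was at -0.38 as the mean of a probe at -0.72 and a dim one at -0.04. Vars2 was at -0.29, Iars2 at -0.27, Nars2 at -0.24 and Rars2 at -0.14 (from 4.08 to 3.70). Several of these signals are low: Aars2 went from 0.451 to 0.345 and Pars2 from 0.725 to 0.534.

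The compartments were close to each other. The cytosolic median lay 0.03 below the mitochondrial one on the log2 scale (-0.03), far less than the range within either class, and the sign of that difference changed under 8 of the alternatives, which put it between -0.08 and 0.17. Where a cytosolic and a mitochondrial enzyme charge the same amino acid, 16 pairings could be made, Eprs and Fars2 each entering 2. The cytosolic gene had the higher ratio in 10 and the lower in 6, with a median difference of 0.05. In 14 of 16 the difference was within the software's spot error for the pair. The exceptions were leucine, where Lars2 lay 1.51 below Lars, and valine, where Vars lay 0.76 below Vars2. The widest of the others was serine, with Sars 0.45 above Sars2 and a half-width of 0.57. For isoleucine the partners were at -0.27 and -0.27, and for cysteine at -0.73 and -0.79.

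**Figure D3:**
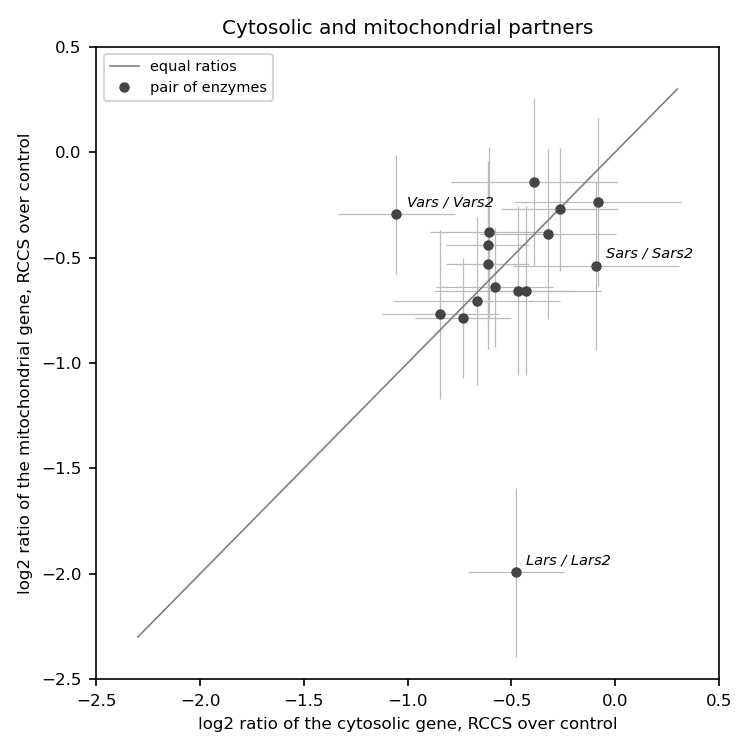
Log2 ratio of the mitochondrial gene against that of the cytosolic gene for the same amino acid, 16 pairings, with 95% spot-error bars and the line of equal ratios. Most pairings lie near the line, while Lars with Lars2 lies far below it and Vars with Vars2 above it.

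Where a gene had several probes, their position along the gene moved with the ratio. For 16 members with probes of a processed signal of at least 100 spread over 200 bases or more of the genome, the probe nearest the 5′ end had the lower RCCS to control ratio in 15, with a median difference of -0.22. The exception was Farsa, by 0.35, where the upstream probe is dim. In Eprs the most upstream probe stood at -1.44 and went from a scaled signal of 4.33 to 1.599, and the most downstream probe stood at -0.13, from 7.46 to 6.80, with the other probes at -0.74 and -0.15. In Lars they stood at -1.07 and -0.23. In Wars they stood at -0.80 and -0.42, and in Vars at -1.06 and -1.05. Of these 16, Eprs and Lars were the members whose most upstream and most downstream probes differed beyond spot error. Probes under a processed signal of 100, as in Qars, were not compared.

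All genes showed the same tendency. Over 3661 genes with such probes the upstream probe was lower in 83.3%, with a median of -0.22, and the median was -0.13 for probes under 2000 bases apart, -0.25 from 2000 to 10000 bases and -0.33 beyond 10000. What sets this gradient was not tested. Taking the most downstream probe in place of the mean left the cytosolic median at -0.44 and the mitochondrial at -0.53, where all genes had -0.10, and 12 members in place of 15 at least 1.5-fold lower. Eprs, Qars and Wars were the ones that came under 1.5-fold.

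**Figure D4:**
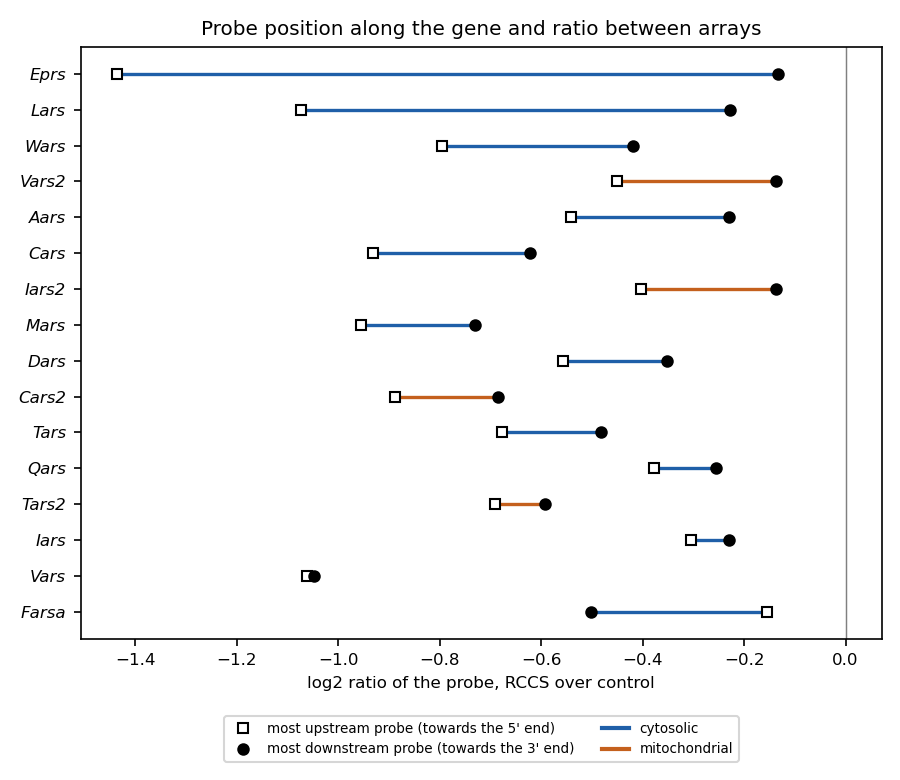
Log2 ratio of RCCS over control for the most upstream (open squares) and most downstream (filled circles) probe of 16 members, sorted by the gap. The upstream probe is the lower in 15 genes, from -1.44 against -0.13 in Eprs to nearly equal in Vars, and the higher in Farsa.

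Brightness also moved with the ratio. Signals were averaged here on the log2 scale over a gene's measured probes and both arrays, dim probes included. The range thus lies below the brightest-probe signal of many cytosolic members. Among 1869 genes with a mean scaled signal between 3.34 and 8.85, the interquartile range of the cytosolic members, the median was -0.22 and 19.1% were at least 1.5-fold lower. Among 3675 genes between 0.715 and 2.996, the interquartile range of the mitochondrial members, the median was -0.09 and 13.1% were. Both classes lay lower, with 40.0% each, a share over all their members, those outside these signal ranges included. The comparison is thus not matched for brightness member by member. Scaled on 8 spike-in probes, the median of all genes moved up by 0.31, 78.9% of all 1.5-fold calls were higher in place of 39.6%, the cytosolic and mitochondrial medians came to -0.26 and -0.23, and 2 members (Vars and Lars2) stayed 1.5-fold lower, the same share as among all genes. Relative to all genes the medians were -0.43 and -0.40 under both, since each is a single factor per array. With quantile normalization, loess, or normexp and quantile normalization they lay between -0.43 and -0.24.

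Most genes that work beside the synthetases also lay below 0, where 61.8% of all genes did and 14.8% were at least 1.5-fold lower. Of 20 other aminoacylation genes measured, 17 were below 0, 6 were at least 1.5-fold lower and 1 higher, with a median of -0.37 (-0.061 with spike-in scaling). Aarsd1, an editing protein related to the alanine enzyme, was at -1.14 and Eefsec, the selenocysteine elongation factor, at -0.69. The mitochondrial histidine enzyme gene Hars2 was at 0.06, with scaled signals of 0.203 and 0.211, and the probe that the array calls Hars2 belongs by accession to Dtd1, a tRNA proofreading enzyme, at -0.61.

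Mitochondrial translation genes, mostly ribosomal proteins of the organelle, had a median of -0.45 (-0.21 with quantile normalization and -0.15 with spike-in scaling). Of 85 genes, 23 (27.1%) were at least 1.5-fold lower, against 14.8% of all genes, and 0 higher, against 9.74%. Lowest were Tsfm (-0.98), Mrps35 (-0.93) and Mrps5 (-0.82). Of 42 cytosolic translation factors, 7 were at least 1.5-fold lower and 1 higher, a share of 16.7%, near that of all genes, with a median of -0.40 (-0.10 with quantile normalization and -0.097 with spike-in scaling). They were led by Eif6 (-0.88), Eef1d (-0.78) and Eif5a (-0.78). The tRNA processing and modification genes had a median of -0.43 (-0.13 with spike-in scaling) over 53 genes, with 12 (22.6%) at least 1.5-fold lower and 0 higher. Their lowest were Rpp25 (-1.72, dim) and Pop1 (-1.14), subunits of RNase P, and Mettl1 (-0.86), a tRNA methyltransferase. The RNA polymerase III list, whose products make tRNA, had a median of -0.29 (0.016 with spike-in scaling) over 23 genes with 3 (13.0%) at least 1.5-fold lower, again near the share of all genes, and 0 higher. Among these were Gtf3c5 at -1.71 and Gtf3a at -0.61.

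The amino acid response list, the ATF4-linked genes outside the family, did not share 1 direction. Its median was -0.20 (0.11 with spike-in scaling) over 40 genes. Below 0 were 23 of them (57.5%), against 61.8% of all genes. At least 1.5-fold lower were 10 of the 40, a larger share than the 14.8% of all genes. At least 1.5-fold higher were 4, a share near the 9.74% of all genes. Atf4 itself was at -0.82 and the asparagine synthetase gene Asns at -0.48. The cystine importer Slc7a11 stood at 3.08, and Cth, of cysteine synthesis, at -1.67 and the transcription factor Atf3 at 1.35. Myc, whose product drives many growth genes through E-boxes, was at -3.50. Their part in the synthetase ratios was not tested.

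**Figure D5:**
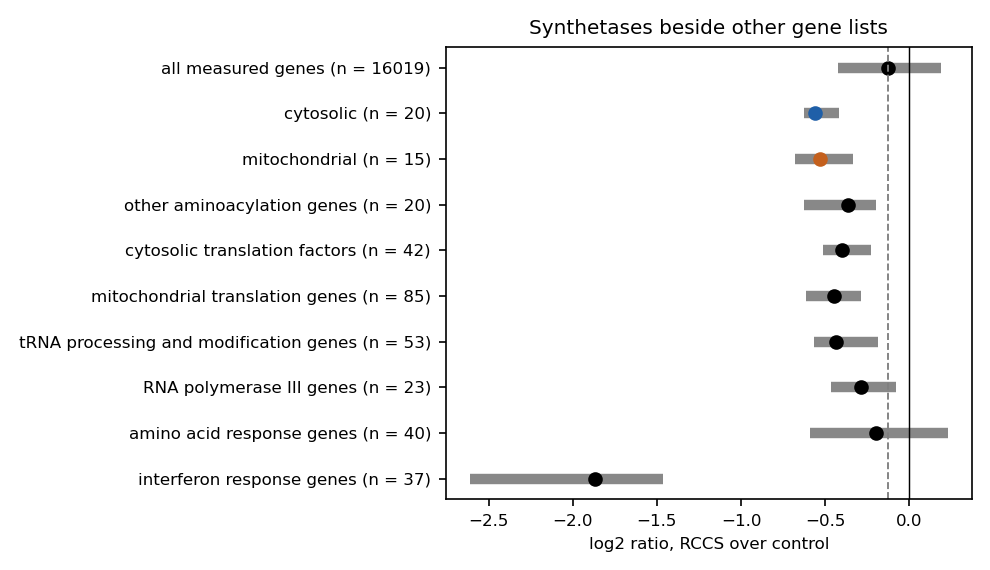
Median (points) and interquartile range (bars) of the log2 ratio of RCCS over control for the cytosolic and mitochondrial synthetases, 7 other gene lists and all measured genes, with the median of all genes dashed. The medians of -0.56 and -0.53 lie below those of the other translation and tRNA lists, and the interferon list lies far lower at -1.87.

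As a check of the label, all 12 macrophage markers, among them Csf1r, Cd68 and Lyz2, were well above background on both arrays, with summed scaled signals of 1247 and 1318. Lyz2 alone gave 573 and 567 of these sums. The T cell, B cell, fibroblast, and epithelial and endothelial lists summed to at most 1.20 on either array. Some of their genes were also well above background, in that order 4, 3, 2 and 4 on the control array and 4, 2, 4 and 3 on the RCCS array. The lists have 6, 5, 7 and 8 genes on the array. On the control array 57.5% of probes and on the RCCS array 60.6% were well above background.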

How the data were processed

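RNA of RAW 264.7 cells was measured on 2 one-colour arrays, 1 labelled control and 1 RCCS. Per the file headers, the authors made linear intensities with Agilent Feature Extraction (spot analysis version 9.5.3.1), with spatial and multiplicative detrending on and its background correction switch off. A deposited table also holds a ratio per probe and array. It equals the processed signal over 849 (control) and 964 (RCCS), with a lowest value of 0.01 and column medians of 0.06, so it is a linear scaling within each array, with no gene centring and no ratio between arrays.

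Spots free of outlier flags were averaged per probe (41171 probes), divided by the array's 75th percentile (849 and 966) and turned to log2. Probes entered when 50% or more of their spots passed the software's background flag on each array. Saturated spots numbered 0. Gene values are means over measured probes. Of 73 member probes, 62 were measured, and 52 were named by accession through RefSeq GRCm38.p6 and the others by the file's name. Coordinates in the files carry no stated build and served for probe order alone. With 1 array per group, folds are sizes and not tests, and the number of arrays limits the precision. The calculation was tested on simulated data. Members, lists and rules were chosen with earlier results of these data known. Genes named are all 37 members, the 3 of each list farthest from 0, and Atf4, Asns, Myc, Hars2 and Eef1e1. Some genes that this rule names are not reported here. Dtd1 and the genes named in the check of the label were added later. Tools were Python 3.11.15, pandas and R limma 3.58.1. The alternatives are given in the closing section.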

Additional observations from a re-analysis of the deposited data

How the results depend on the processing

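Each member was recomputed under 13 alternatives, of which taking the most downstream probe was chosen after seeing the data, as were leaving out Lars2 and joining spike-in scaling with the brightest probe. Vars and Lars2 were at least 1.5-fold lower under all 13, and 29 of 37 members were below 0 under every alternative that measured them. These counts have no share of all genes beside them, so they are not a result about the family. Of 479 member values, 354 moved by less than 1 spot standard error of the gene, 124 by more, and Yars2 turned to 0.31 with no filter on dim probes. The count of 15 members at least 1.5-fold lower, against 14.8% of all genes, became 7 (all genes 9.42%) with the 75th percentile of measured probes, 7 (11.5%) with quantile normalization, 6 (10.1%) with loess, 6 (6.605%) with normexp and quantile normalization, 2 (5.39%) with spike-in scaling and 2 (3.76%) at a 2-fold threshold. With spike-in scaling the members' share, 5.41%, did not exceed that of all genes. It was 12 to 16 otherwise, and no alternative put a member at least 1.5-fold higher. The cytosolic median came to -0.26 with spike-in scaling, -0.35 with loess and -0.27 with normexp and quantile normalization, and the mitochondrial median to -0.23 with spike-in scaling. Both medians were below 0 and below that of all genes in all alternatives. The difference between the classes turned positive with quantile normalization (0.10), loess (0.092), normexp and quantile normalization (0.17), a signal of at least 100 (0.065), the brightest probe (0.10), probes named by accession (0.025), the most downstream probe (0.095) and without Gars and Kars (0.016). The cause of these moves was not tested. No paired analysis was possible because each group has 1 array.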
